A study of Mus musculus with 6 samples.

Results

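Muc13 and Ssbp2 are 2 of the 20914 genes listed in the count table of a mouse liver study. They were taken by name because their counts were far higher in libraries labelled DOX than in libraries labelled PBS. RNA from liver was sequenced in 3 DOX and 3 PBS libraries. All 6 libraries share the genotype label BucheKI/KI-Hep, the terms S10D, CKI and Alb-Cre in the group name, and the label of BDL treatment. DOX and PBS are the only terms that differ between the groups. The deposited design text speaks of overexpressing BUCHE, butyrylcholinesterase, in hepatocytes with BDL as the model. The labels spell out neither DOX nor S10D nor BDL, which in mouse liver work usually stands for bile duct ligation. Alb-Cre expresses a recombinase from the albumin promoter and so acts mainly in hepatocytes, while the sequenced RNA came from liver with all its cell types. The labels do not state that libraries of a group came from separate animals, and a p-value therefore sets a difference against the scatter of these 6 libraries, part of which may be technical.

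Mucins are heavily O-glycosylated proteins that coat epithelial surfaces. Muc13 is a mucin with a membrane anchor that is best known from the surface of intestinal and other glandular epithelia. Ssbp2 belongs to a family of nuclear proteins that bind and stabilise the adaptor Ldb1, which joins LIM-domain and GATA transcription factors at enhancers. Their relative Ssbp1, despite its name, is a mitochondrial DNA-binding protein.

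Total counts per library lay between 32826493 and 41102844, so that 3 counts, taken as the detection floor, equal 0.0692 to 0.0907 CPM (counts scaled to library size, here with TMM factors). Bche, the overexpressed gene, had 968.8, 447.3 and 594.8 CPM in DOX replicates 1, 2 and 3, against 192.7, 244.8 and 194.1 CPM in PBS replicates 1, 2 and 3. All DOX libraries thus lay above all PBS libraries for Bche, although the difference did not pass over all genes (edgeR quasi-likelihood, log2 fold change 1.67, SE 0.27, adjusted p = 0.106). All 22 hepatocyte genes examined had counts in all 6 libraries, in keeping with the liver label.

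Muc13 lies on chromosome 16 (33794037 to 33819934, plus strand, GRCm38) and has 2 annotated transcripts, whose exons cover 3038 bases. Ssbp2 lies on chromosome 13 (91460283 to 91703429, plus strand) and spans 243147 bases, with 10 annotated transcripts whose exons cover 7985 bases. The promoter sequences are shown because the genes were higher in the same libraries. They are 5′ to 3′, from 250 bases before to 50 bases after each start in RefSeq on GRCm38.p6, at chr16:33793787-33794086 and chr16:33794239-33794538 for Muc13 and chr13:91460847-91461146 for Ssbp2, whose RefSeq start lies inside the GENCODE gene and not at its first base. Capitals mark matches, on either strand, to the 8 motifs searched.
Muc13 upstream start: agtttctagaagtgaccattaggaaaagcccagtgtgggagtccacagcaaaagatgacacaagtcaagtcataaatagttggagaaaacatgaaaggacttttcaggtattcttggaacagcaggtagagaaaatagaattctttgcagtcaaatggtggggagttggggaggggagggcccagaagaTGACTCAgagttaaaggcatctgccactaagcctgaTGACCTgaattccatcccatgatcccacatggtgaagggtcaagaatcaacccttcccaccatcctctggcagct
Muc13 downstream start: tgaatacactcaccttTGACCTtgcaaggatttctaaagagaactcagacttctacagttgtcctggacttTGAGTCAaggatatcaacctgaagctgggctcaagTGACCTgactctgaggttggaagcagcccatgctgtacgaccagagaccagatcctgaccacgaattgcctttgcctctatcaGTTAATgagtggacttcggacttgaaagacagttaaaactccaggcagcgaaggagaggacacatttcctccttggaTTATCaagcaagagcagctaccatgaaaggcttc
Ssbp2 start: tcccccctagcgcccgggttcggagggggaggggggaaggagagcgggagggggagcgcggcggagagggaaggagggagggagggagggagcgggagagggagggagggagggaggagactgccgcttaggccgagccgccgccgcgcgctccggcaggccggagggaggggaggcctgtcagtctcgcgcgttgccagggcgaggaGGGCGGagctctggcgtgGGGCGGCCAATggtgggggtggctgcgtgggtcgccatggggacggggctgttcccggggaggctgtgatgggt

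The promoters differed in base composition. The Muc13 promoters had 46.3% and 47.0% G and C with 0 and 4 CpG dinucleotides, and the Ssbp2 promoter had 75.3% with 28 CpG dinucleotides, where the medians of 32851 promoters were 52.7% and 7. The motif of AP-1, a dimer of Fos and Jun proteins (TGANTCA), stood in both Muc13 promoters and in 7.81% of all promoters of this length. The nuclear receptor hexamer AGGTCA stood in both Muc13 promoters and in 16.3% of all promoters. The HNF1 hexamer GTTAAT (7.10% of all promoters) and GATAA (25.4%) each stood in the downstream Muc13 promoter. The Ssbp2 promoter held the GC box GGGCGG (35.7% of all promoters), with 2 matches, and CCAAT (37.4%), which directly adjoins the GC box nearer to the start. TATAAA (13.6%) and CACGTG (7.15%) matched none of the 3 windows, and none of the 8 motifs was found in both genes.

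Muc13 was at the edge of detection in PBS livers and among the more abundant transcripts in DOX livers. It had 3543, 2917 and 1987 counts in DOX replicates 1, 2 and 3, against 4, 16 and 2 counts in PBS replicates 1, 2 and 3. The groups were far apart, with DOX replicate 3 the lowest of its group and PBS replicate 2 the highest of its own. In scaled units the counts equal 94.5, 86.1 and 53.6 CPM in DOX, against 0.0923, 0.484 and 0.0535 CPM in PBS. PBS replicate 3 was below the floor of 3 counts and PBS replicate 1 was 1 count above it. The exact Poisson 95% intervals of the PBS levels were 0.0251 to 0.236 CPM for replicate 1, 0.277 to 0.786 CPM for replicate 2 and 0.00648 to 0.193 CPM for replicate 3. Replicates 1 and 3 overlapped, and replicate 2 lay above both. These intervals cover counting error only.

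In the deposited FPKM, which divide by gene length, Muc13 stood at 30.6, 29.1 and 16.3 in DOX replicates 1, 2 and 3, against 0.0332, 0.164 and 0.0192 in PBS replicates 1, 2 and 3. The group means were 25.3 ± 7.87 FPKM in DOX and 0.0722 ± 0.0799 FPKM in PBS (SD, n = 3 each). By FPKM it ranked 1592, 1732 and 2537 among all listed genes in the DOX libraries, against 15465, 12797 and 16126 in the PBS libraries. With the counts of each group pooled, the DOX level was 403 times the PBS level (exact 95% interval 266 to 644, counting error only). Without PBS replicate 2, which held 16 of the 22 PBS counts, the ratio was 1049 (interval 482 to 2858). The closest pair of libraries from the different groups, DOX replicate 3 and PBS replicate 2, still differed 111-fold in CPM. As Muc13 was chosen for this difference, no test of it is given. RNA of liver does not tell whether more cells of a type held the transcript or whether each held more of it.

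Ssbp2 was low but plainly detected in PBS livers. It had 517, 662 and 405 counts in DOX replicates 1, 2 and 3, against 71, 52 and 50 counts in PBS replicates 1, 2 and 3. In scaled units these were 13.8, 19.5 and 10.9 CPM in DOX and 1.64, 1.57 and 1.34 CPM in PBS, with no overlap of the groups. All PBS counts were thus well over the floor, and by CPM Ssbp2 stood above 44.7% to 46.0% of listed genes in PBS libraries, so that near-absence describes Muc13 in PBS livers and not Ssbp2. The pooled DOX level was 9.61 times the PBS level (exact 95% interval 8.21 to 11.3, counting error only), and leaving out any library kept that ratio between 8.14 and 10.9. The closest libraries of the different groups differed 6.67-fold. Again no test is given, since the gene was chosen on this contrast.

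**Figure D1:**
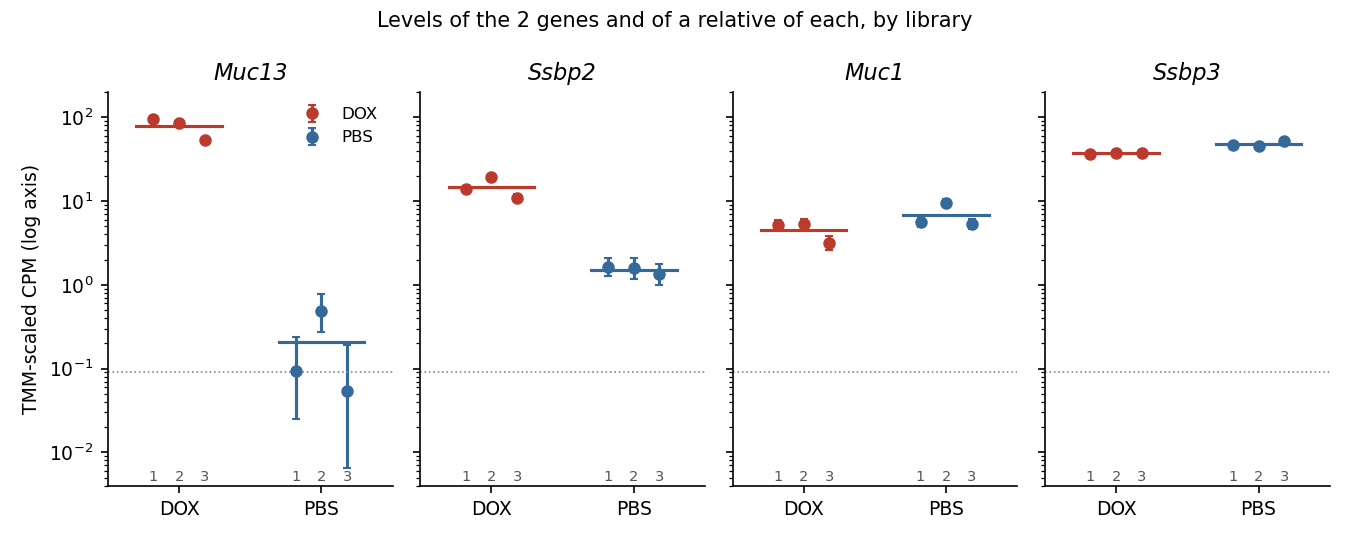
TMM-scaled CPM (log axis) of Muc13, Ssbp2 and a relative of each, Muc1 and Ssbp3, in each DOX and PBS library, numbered by replicate. Points are libraries with exact Poisson 95% intervals, horizontal lines are group means (n = 3), and the dotted line is the floor of 3 counts in the shallowest library (0.0907 CPM). Muc13 reaches the floor in PBS, Ssbp2 stays above it, and neither relative shows a gap of comparable size.

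The FPKM of Ssbp2 need care. They were 0.318, 0.470 and 0.236 in DOX replicates 1, 2 and 3, against 0.0419, 0.0379 and 0.0342 in PBS replicates 1, 2 and 3. The length by which the authors' FPKM divide is 41750 bases for Ssbp2, which is 5.23 times the exon length in GENCODE. For Muc13 it is 2971 bases, or 0.978 times the GENCODE length. Over 17646 genes with a count the median of this ratio was 0.932, and 3.89% had a ratio of at least 3. With the GENCODE length, chosen after seeing the data, Ssbp2 would stand at 1.78 ± 0.622 FPKM in DOX and 0.199 ± 0.0201 FPKM in PBS (SD, n = 3 each). These values keep the deposited counts, and whether all counted reads lay in the GENCODE exons was not tested. The counts and CPM of Ssbp2 carry the same limit. For given counts the ratio between the groups does not depend on the length, but the place of Ssbp2 among other genes does.

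The 2 genes spread alike among DOX libraries and unlike among PBS libraries. In DOX, the coefficient of variation of the CPM was 27.7% for Muc13 and 29.7% for Ssbp2, against a median of 12.9% over the genes tested, while counting alone would give 1.88% and 4.35%. In PBS it was 113% for Muc13 and 10.5% for Ssbp2, against a median of 11.9%, with 36.9% and 13.2% from counting. Ssbp2 thus varied among PBS libraries by no more than counting allows, and Muc13 varied there by more. Muc13 was highest in DOX replicate 1 and Ssbp2 in DOX replicate 2, and both were lowest in DOX replicate 3. Bche had yet another order, with DOX replicate 2 the lowest.

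The gap between the groups, taken as log2 of the lowest DOX CPM over the highest PBS CPM with 0.1 added to each, served to compare the pattern with other genes across the 6 libraries. Of 11953 genes with a mean of at least 1 CPM, 4 (0.0335%) had every DOX library at least 2-fold above every PBS library, and 1 (0.00837%) had every DOX library at least 2-fold below. The 4 were Muc13, Gstm5, Ssbp2 and Fabp1. Muc13 ranked 1 with a gap of 6.52 and Ssbp2 ranked 3 with 2.67, which is what they were chosen for. Muc13 reached the mean of 1 CPM only through its DOX libraries. Gstm5, a mu-class glutathione S-transferase, ranked 2 with a gap of 3.25. It stood at 189.3, 153.4 and 194.7 CPM in DOX replicates 1, 2 and 3, against 15.2, 15.6 and 16.1 CPM in PBS replicates 1, 2 and 3. Unlike Muc13, Gstm5 was well expressed in PBS livers. Whether its reads are shared with similar family members was not tested. Fabp1, a fatty acid binding protein of liver, followed with a gap of 1.57, then Pklr, the liver pyruvate kinase, with 0.99, Csrp3, a muscle LIM protein, with 0.93, and Bche with 0.87. These last 4 did not pass over all genes (edgeR adjusted p = 0.105, 0.105, 0.153 and 0.106). Among genes lower in DOX, the widest gap was that of Chil1, a chitinase-like protein, at 1.68, named after its values were seen.

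**Figure D2:**
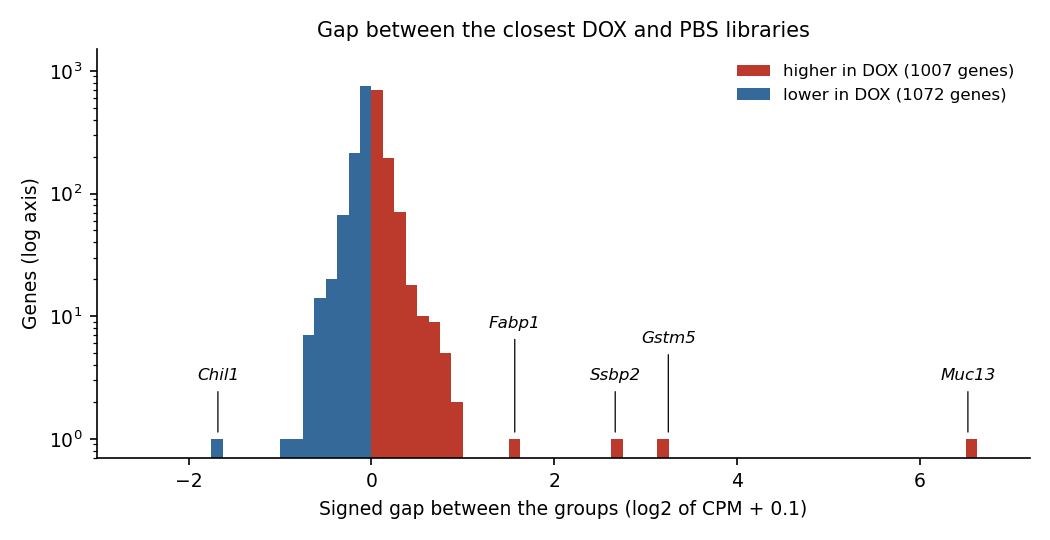
Histogram of the gap between the closest DOX and PBS libraries (x axis, log2 of CPM + 0.1, positive where DOX is higher) for the 1007 genes higher and the 1072 genes lower in all DOX libraries, with a log axis of gene counts. Muc13 at 6.52 lies farthest out, with Gstm5 and Ssbp2 at 3.25 and 2.67.

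Over all 13725 genes tested, edgeR called 4 at an adjusted p of 0.05 (0.0291%). Of these 3 (0.0219% of the genes tested) were higher and 1 (0.00729%) was lower in DOX. Muc13 and Ssbp2 are counted among the 3, which is no evidence about them, since this same contrast chose them. The other 2 were Gstm5, which was higher, and Orm3, an acute phase protein that was lower (log2 fold change -1.09, SE 0.10, adjusted p = 0.014). Orm3 missed the threshold, at edgeR adjusted p-values of 0.0677 to 0.0799, when DOX replicate 1, DOX replicate 2, PBS replicate 1 or PBS replicate 3 was left out. At an unadjusted p under 0.05 stood 5.03% of genes as higher and 4.87% as lower, and log2 fold changes were positive for 47.0%. The groups did not overlap for 7.84% of genes in the higher and 9.01% in the lower direction. The log2 fold changes of the members in the same fit were 8.62 for Muc13 and 3.28 for Ssbp2, given here as descriptions.

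No other mucin passed the test. Of the 7 other genes for transmembrane mucins and mucin-like proteins in the table, 4 were tested and 0 passed (edgeR, 0 also at an unadjusted p under 0.05, by DESeq2 and by limma-voom). Muc1, the transmembrane mucin of many ducts, had 194, 180 and 117 counts in DOX replicates 1, 2 and 3, against 241, 312 and 198 counts in PBS replicates 1, 2 and 3. Its groups came within 4 counts of each other without overlapping in raw counts, and they overlapped once scaled, with 3.16 to 5.32 CPM in DOX and 5.29 to 9.44 CPM in PBS (log2 fold change -0.57, SE 0.29, edgeR adjusted p = 0.550). Cd164, a sialomucin of many cell types, had 101 ± 9.41 FPKM in DOX and 96.5 ± 6.22 FPKM in PBS (SD, n = 3 each, edgeR adjusted p = 0.553). In CPM all its DOX libraries (285 to 321) lay above all its PBS libraries (252 to 270), as did those of 7.84% of all genes. The 7 genes other than Muc13 summed to 297 to 336 CPM in DOX and 265 to 282 CPM in PBS, with Cd164 the largest part. Emcn and Podxl, sialomucins of endothelium and of podocytes and vessels, stood at 1.26 and 1.07 FPKM in DOX and at 0.817 and 0.912 FPKM in PBS. Muc4, Muc16 and Muc20 were below the count filter, and Muc4 and Muc20 had at most 6 counts in a library. Among secreted mucins, Muc2 had 0 or 1 count in each library, so that at this depth no difference could be seen. Muc13 made up 14.7% to 21.2% of the summed FPKM of the 8 listed transmembrane mucins in DOX libraries, against 0.0180% to 0.173% in PBS libraries. The enzymes that build mucin-type O-glycans, such as Galnt1, which adds the first sugar, and C1galt1c1, the chaperone of the core 1 enzyme, had 20 members tested, of which 0 passed by edgeR or DESeq2. At an unadjusted p under 0.05 there was 1, which was lower, against 4.87% of all genes. Galnt1 had 11.7 ± 0.529 FPKM in DOX and 12.1 ± 1.39 FPKM in PBS.

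No relative of Ssbp2 passed the test. Ssbp3, which also binds Ldb1, had 7.96, 8.41 and 7.63 FPKM in DOX replicates 1, 2 and 3, against 11.3, 10.2 and 12.6 FPKM in PBS replicates 1, 2 and 3, with all DOX libraries below all PBS libraries (log2 fold change -0.37, SE 0.09, edgeR adjusted p = 0.259). Ssbp4 had 5.06 ± 2.20 FPKM in DOX and 4.37 ± 0.619 FPKM in PBS, with overlapping groups (adjusted p = 0.736 by edgeR). Ssbp1 had 6.03 ± 0.592 FPKM in DOX and 6.42 ± 0.387 FPKM in PBS (adjusted p = 0.932 by edgeR). Ssbp2 accounted for 20.1% to 28.5% of the counts of Ssbp2, Ssbp3 and Ssbp4 in DOX libraries, against 2.20% to 2.84% in PBS libraries. These counts are not divided by length, so the shares cannot be set beside the FPKM shares of Muc13. The authors' lengths are 41750, 4422 and 2107 bases for Ssbp2, Ssbp3 and Ssbp4. In deposited FPKM Ssbp2 had a DOX mean of 0.341 and lay below Ssbp3 and Ssbp4 in every library. With the GENCODE lengths, the DOX means were 1.78, 5.37 and 3.37 FPKM for Ssbp2, Ssbp3 and Ssbp4. No stretch of 50 bases was shared between the GENCODE transcripts of Ssbp2 and those of Ssbp1, Ssbp3 or Ssbp4. Of the 50-base stretches, 2.82% of those of Ssbp2 and 0% of those of Muc13 occurred in a transcript of any other gene. Any sequence counted for Ssbp2 outside these transcripts was not examined.

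The list of the Ssbp family and Ldb complex partners had 21 tested members without Ssbp2, with 10 positive and 11 negative log2 fold changes, a median of -0.13 (all genes -0.02) and 0 passing by edgeR or DESeq2 (0 higher and 4 lower at an unadjusted p under 0.05, against 5.03% and 4.87% of all genes). The median was 0.02 without DOX replicate 3 and -0.01 without DOX replicate 2. The groups did not overlap for 5 of them in the lower direction, where the share over all genes was 9.01%, and for 0 in the higher direction. Ldb1 had 7.03 ± 0.447 FPKM in DOX and 9.51 ± 1.54 FPKM in PBS (log2 fold change -0.31, SE 0.14, edgeR adjusted p = 0.509). Ldb2 had 0.330 ± 0.0995 FPKM in DOX and 0.234 ± 0.148 FPKM in PBS. Lmo4, a LIM-only partner of Ldb1, had 6.78 ± 0.577 FPKM in DOX and 8.34 ± 1.77 FPKM in PBS.

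Neighbouring genes on either chromosome did not pass. Around Muc13, Itgb5, an integrin subunit that starts 9731 bases beyond its end, had 25.6 ± 4.31 FPKM in DOX and 26.6 ± 0.977 FPKM in PBS. The Muc13 level in DOX livers was thus close to that of its neighbour Itgb5. Heg1, a receptor of endothelium 22461 bases before Muc13, had a log2 fold change of 0.30 (SE 0.15, edgeR adjusted p = 0.563). Umps, an enzyme of pyrimidine synthesis, had the largest positive value of the neighbours, 0.36 (SE 0.11, edgeR adjusted p = 0.399), and all its DOX libraries lay above all its PBS libraries in CPM. Slc12a8, Zfp148 and Kalrn had values of -0.53, -0.14 and -0.01. Around Ssbp2, Acot12, an acetyl-CoA hydrolase of liver 38083 bases beyond its end, had 28.8 ± 6.72 FPKM in DOX and 31.1 ± 4.95 FPKM in PBS (log2 fold change 0.03, SE 0.21, edgeR adjusted p = 0.977). Atg10, Rps23 and Zcchc9 had values of 0.22, 0.20 and 0.08, and Ckmt2 had 1 count in DOX replicate 3 and 0 elsewhere. The antisense gene 4833422C13Rik overlaps the last 1765 bases of Ssbp2. Strand use is not given, so reads there cannot be told apart, and how they were assigned is not known. The counts of 4833422C13Rik were 51, 40 and 48 in DOX replicates 1, 2 and 3. They were 59, 25 and 44 in PBS replicates 1, 2 and 3, with no gap between the groups. An antisense gene, Gm15657, overlaps 2838 bases of Muc13 but is not among the genes listed in the count table, so it could not be examined. Atp6ap1l, a neighbour 554928 bases before Ssbp2, is likewise not listed there.

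**Figure D3:**
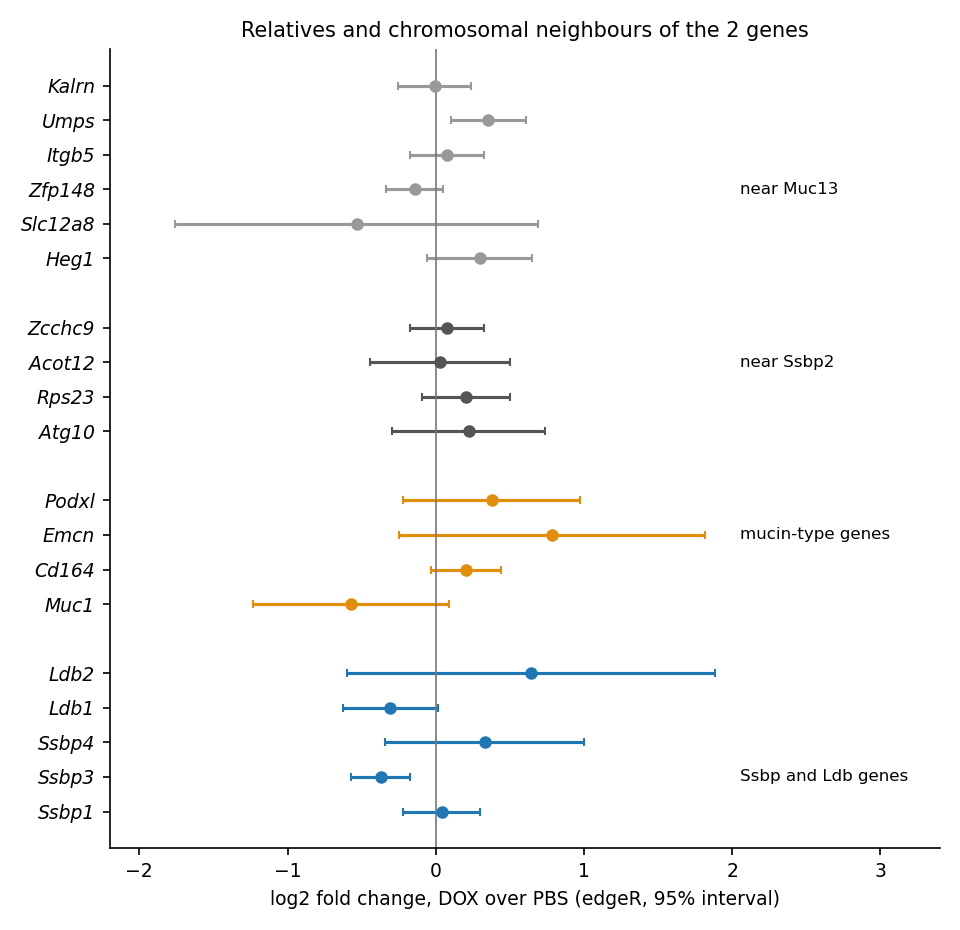
Log2 fold changes of DOX over PBS (x axis, edgeR, points with 95% intervals, n = 3 each) for Ssbp and Ldb genes, mucin-type genes, and the tested neighbours of Ssbp2 and Muc13. The values lie between -0.57 and 0.78, whereas Muc13 and Ssbp2, which are not drawn, stood at 8.62 and 3.28.

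Among other epithelial and liver genes, Muc13 held a different place by FPKM in the 2 groups. Its mean in DOX livers exceeded that of 18 of 23 general epithelial genes and 19 of 20 cholangiocyte genes, while in PBS livers it exceeded 0 of 23 and 1 of 20. Cholangiocytes are the epithelial cells of bile ducts. The exception among them in DOX livers was Spp1, osteopontin, with 71.9 ± 29.4 FPKM in DOX and 123 ± 10.6 FPKM in PBS. Muc13 stayed below all 22 hepatocyte genes in both groups. Of the general epithelial genes, 23 were tested and 0 passed by edgeR, with a median log2 fold change of -0.00 (-0.13 with library size only and also without DOX replicate 1). DESeq2 called 1, Cdh1 (log2 fold change -0.68), the cadherin of epithelial junctions. Krt8 and Krt18, the keratin pair of simple epithelia, had 391.5 ± 93.0 and 317 ± 74.6 FPKM in DOX and 426 ± 55.8 and 329 ± 47.2 FPKM in PBS. Of 22 hepatocyte genes 0 passed by edgeR, with a median of 0.09 (-0.04 with library size only), and DESeq2 called Alb, albumin (adjusted p = 0.0181). At an unadjusted edgeR p under 0.05 stood 3 as higher and 1 as lower, against 5.03% and 4.87% of all genes. The groups did not overlap for 3 in the higher and 2 in the lower direction, against 7.84% and 9.01% of all genes. The 22 genes summed to 152041 to 208394 CPM in DOX and 135267 to 151595 CPM in PBS, without overlap. Of this, Alb had a mean of 93027 CPM in DOX and 51872 CPM in PBS. Of 4 tested genes of intestinal and goblet epithelium, where Muc13 is known to be abundant, 0 passed by edgeR or DESeq2, with a median of -0.27 (0.14 without PBS replicate 2). Fabp2, the intestinal fatty acid binding protein, had 11.9, 12.8 and 14.4 FPKM in DOX replicates 1, 2 and 3, against 6.10, 11.9 and 6.63 FPKM in PBS replicates 1, 2 and 3. In CPM all its DOX libraries lay above all its PBS libraries, and it was the 1 gene of this list at an unadjusted p under 0.05 (log2 fold change 0.80, SE 0.27, edgeR adjusted p = 0.423). Over all genes 5.03% were higher at that unadjusted threshold. Tff3, a goblet cell peptide, had 8.88 ± 6.36 FPKM in DOX and 14.7 ± 6.92 FPKM in PBS. Lgals4, a galectin of gut epithelium, had 4.07 ± 1.59 FPKM in DOX and 5.38 ± 3.28 FPKM in PBS.

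**Figure D4:**
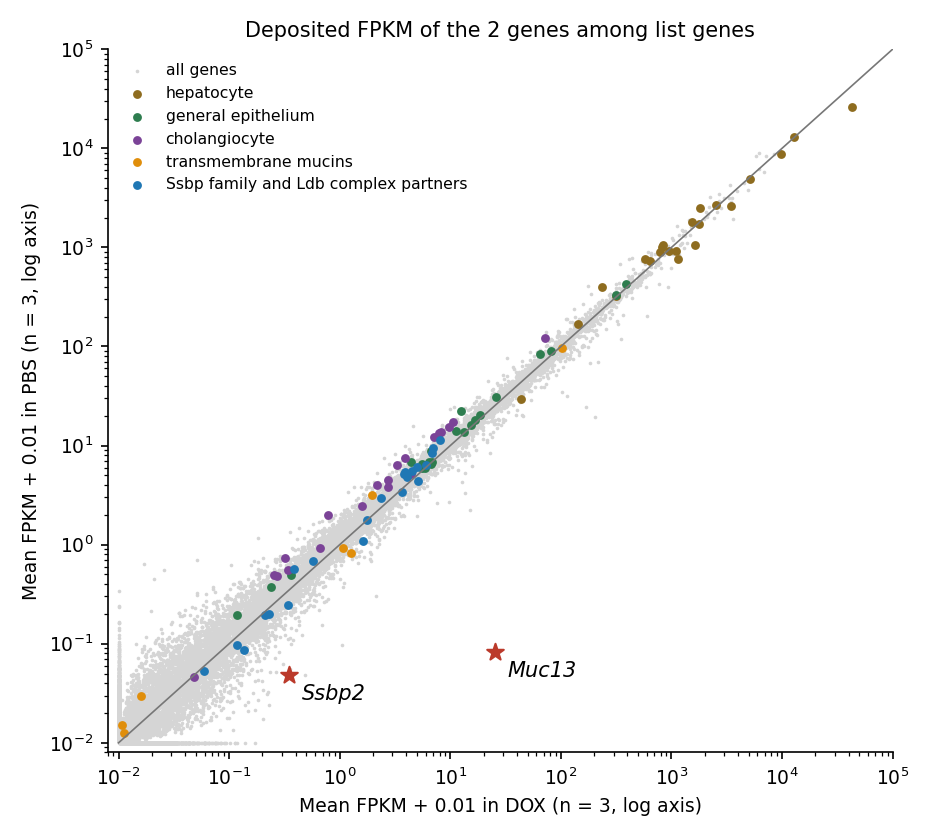
Mean deposited FPKM + 0.01 in DOX (x axis) against PBS (y axis), both log axes, for all genes in grey and for genes of 5 lists in colour (n = 3 libraries per mean), with the line of equal levels. The list genes lie near that line, with the tested cholangiocyte genes on its PBS side (19 of 19 negative, median edgeR log2 fold change -0.66). Muc13 and Ssbp2 (stars) lie to its right, at 25.3 and 0.341 FPKM in DOX and 0.0722 and 0.0380 FPKM in PBS.

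No cholangiocyte gene passed by edgeR. Log2 fold changes were negative for 19 of 19 tested, where 47.0% of all genes were positive, with a median of -0.66, of which 0 passed by edgeR (0 higher and 7 lower at an unadjusted p under 0.05, against 5.03% and 4.87% of all genes) and 1, Tspan8, a tetraspanin, by DESeq2 (adjusted p = 0.00991). Without PBS replicate 2 the median was -0.37, and without DOX replicate 3 it was -0.43. The groups did not overlap for 6 of them, all lower in DOX, where the share over all genes was 9.01%. The summed CPM of the 20 genes was 339, 315 and 184 in DOX replicates 1, 2 and 3, against 386, 539 and 359 in PBS replicates 1, 2 and 3, and no gene of the list was at 0 in any library. Replicates 1, 2 and 3 in DOX and replicates 2, 1 and 3 in PBS ran from high to low in this sum and in Muc13 alike. In PBS the order of replicates 1 and 3 is not resolved for Muc13, at 4 and 2 counts with overlapping Poisson intervals. This order was not particular to cholangiocyte genes, since the sums of 3 of the 14 lists had it in both groups. The others were mucin-type O-glycosylation and the Ssbp family with Ldb complex partners. In DOX alone the sums of transmembrane mucin, general epithelial, stellate and mesenchymal, and macrophage genes had it as well. The ratio of Muc13 CPM to this sum was 0.279, 0.273 and 0.291 in DOX replicates 1, 2 and 3, so its highest value was 1.06 times its lowest. For the other 13 lists, whose sums likewise leave out Muc13 and Ssbp2, this figure lay between 1.32 and 3.17. For Muc1 in place of the list the highest ratio was 1.13 times the lowest, and for Bche 2.14 times. In PBS the ratio to the cholangiocyte sum differed 6.03-fold between libraries. For Ssbp2 in DOX the ratio to the cholangiocyte sum differed 1.53-fold, and the ratios to the other 13 lists differed 1.65-fold to 3.18-fold. These comparisons rest on 3 libraries a group, were chosen after the values were seen, and carry no test, and the part of cholangiocyte content in the Muc13 level was not tested.

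**Figure D5:**
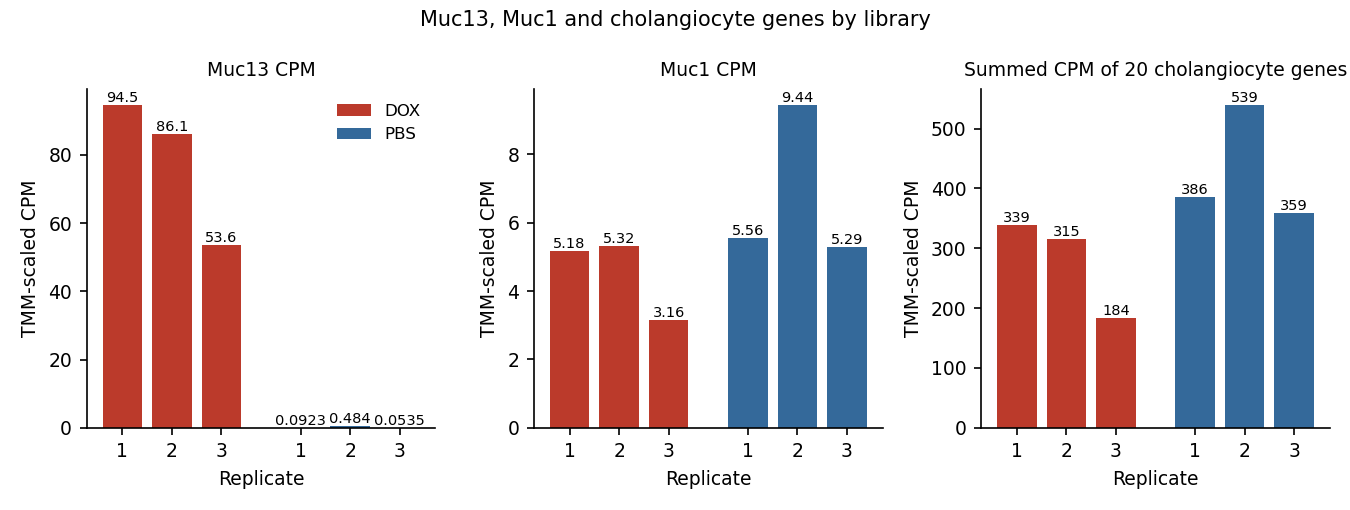
TMM-scaled CPM of Muc13, of Muc1 and summed over 20 cholangiocyte genes (bars from 0) in each DOX and PBS library by replicate. Muc13 is visible in DOX only, at 53.6 to 94.5 CPM, whereas Muc1 and the cholangiocyte sum are present in all libraries, lowest in DOX replicate 3 and highest in PBS replicate 2.

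Markers of other cell types were measured beside the members. Liver endothelial genes summed to 120 to 230 CPM in DOX and 50.8 to 147 CPM in PBS, with 10 of 10 positive, a median log2 fold change of 0.88 and 0 passing by edgeR or DESeq2 (2 higher at an unadjusted p under 0.05, against 5.03% of all genes). Without PBS replicate 2 the median was 0.44 with 9 of 10 positive. In the fit of all libraries 47.0% of all genes were positive. Of 10 stellate and mesenchymal genes 0 passed by edgeR or DESeq2, with a median of 0.37 (0.24 with library size only, 0.15 without DOX replicate 1, 0.09 without PBS replicate 2), and of 10 macrophage genes 0 passed, with a median of 0.02 (-0.11 with library size only, -0.10 without DOX replicate 1). Of 6 neutrophil genes 0 passed, with 6 negative and a median of -0.60, where 47.0% of all genes were positive. At an unadjusted p under 0.05 2 of them were lower, against 4.87% of all genes. Leaving out PBS replicate 1 gave a neutrophil median of -0.38, with 4 of 5 tested genes negative. Of 5 lymphocyte, 2 exocrine pancreas and 1 secreted mucin genes tested 0 passed, with medians of 0.33, 0.35 and 0.36. The lymphocyte median was -0.65 without DOX replicate 2 and -0.06 with limma-voom, the pancreas median 0.07 without DOX replicate 1, and the secreted mucin value 0.14 without DOX replicate 3. Stellate and mesenchymal genes summed to 192 to 447 CPM in DOX and 182 to 388 CPM in PBS, macrophage genes to 903 to 1202 CPM in DOX and 940 to 1085 CPM in PBS, and neutrophil genes to 11.6 to 17.6 CPM in DOX and 15.4 to 30.8 CPM in PBS. Lymphocyte genes summed to at most 4.46 CPM and 3 exocrine pancreas genes to at most 8.10 CPM in any library. Over all lists, 157 genes other than Muc13 and Ssbp2 were tested and 0 passed by edgeR, where 6 higher and 16 lower had an unadjusted p under 0.05, against 5.03% and 4.87% of all genes. DESeq2 called 3, which were Alb, Cdh1 and Tspan8, and limma-voom called 0. Whether any of these cell types contributed to the levels of Muc13 and Ssbp2 was not tested.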

How the data were processed

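The 6 mouse liver libraries (3 DOX, 3 PBS) were prepared from total RNA with a SMARTER kit for mRNA, per the labels' protocols. GRCm38 and mm10 are the builds in the submitters' processing notes. For the aligner, the counter and strand use, the sources used here give nothing. The authors deposited whole-number read counts and FPKM values per gene symbol. The deposited FPKM equal the counts divided by the column total and 1 length per gene.

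The main test on the counts was that of edgeR 4.0.16 under R 4.3.3 (filterByExpr, TMM scaling, quasi-likelihood test, Benjamini-Hochberg adjustment over all genes tested, threshold 0.05). Standard errors come from the F statistic, and 95% intervals from the t distribution of the fit. The procedure was also run on simulated counts with changes far smaller than that of Muc13, and the outcome is not given here. Alternatives were DESeq2 1.42.0, limma-voom (limma 3.58.1), limma on log2 FPKM with 1 or 0.1 added, other scalings, no filter, a replicate block, and the omission of each library in turn. Coordinates are from GENCODE M21 and promoters from RefSeq, on GRCm38.

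The members, the 14 gene lists and the naming rule were chosen with earlier results of these data known. The rule names both genes, Bche, members of both families, 3 protein coding neighbours per side, up to 4 list genes of highest mean FPKM per list discussed, every gene that passes, and the 5 genes of widest gap. Muc16, Cdh1, Tspan8, Chil1 and the antisense gene 4833422C13Rik were named after their values were seen. The other overlapping antisense gene, Gm15657, has no listed counts.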

Additional observations from a re-analysis of the deposited data

How the results depend on the processing

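The log2 fold change of Muc13 was 8.62, and 8.18 to 9.98 when 1 library was left out, the highest without PBS replicate 2. On the FPKM table it was 4.57 with a pseudocount of 1 and 7.25 with 0.1. That of Ssbp2 was 3.28, and 3.03 to 3.46 when 1 library was left out. On the FPKM table that of Ssbp2 was 0.37 with a pseudocount of 1 and 1.64 with 0.1. A pseudocount that is not small beside the values compresses their ratio. RLE scaling, library size only, DESeq2, limma-voom and no filter moved neither value by more than the spread between replicates. The 4 genes changed became 176 with DESeq2 (128 higher, 48 lower), 61 without the filter (45 higher, 16 lower) and 2 with limma-voom (1 higher, Gstm5, and 1 lower, Orm3), where neither Muc13 nor Ssbp2 was called. On the FPKM table Muc13 was called and Ssbp2 was not, with either pseudocount. Leaving out 1 library gave 3 to 4. The genes of the lists called were 0 in every setting except DESeq2, which called 3. The cause of these differences in calls was not tested. Scaling by library size only moved the median of all genes to -0.15. Of 70 genes named by the rule and not called, 5 were called in at least 1 setting (Bche, Fabp1, Pklr, Csrp3 and Alb, all with DESeq2), and 28 changed sign in at least 1 setting. Of the genes named after their values were seen, DESeq2 called Cdh1, Tspan8 and Chil1, and the fit without the filter called Chil1.

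With the replicate number as a block, 21 genes changed (17 higher, 4 lower), 0 of them on the lists, with log2 fold changes of 8.64 for Muc13 and 3.24 for Ssbp2. Deviations of libraries of the same number correlated at 0.225, 0.161 and 0.0193, which is not above 0.1 for every pair, and PBS replicate 3 correlated best with DOX replicate 1 (0.0640). The labels give the numbers no meaning, so the block is given only here. The GENCODE length, added after the data were seen, moved the mean FPKM of Ssbp2 in DOX to 1.78 from a deposited 0.341 and that of Muc13 to 24.8 from 25.3. With 2 to 16 counts in PBS, the counting error there was larger for Muc13 (36.9%) than for Ssbp2 (13.2%). The coefficient of variation of Muc13 among PBS libraries (113%) exceeded counting, and that of Ssbp2 (10.5%) did not.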
